A study of Mus musculus with 9 samples.

Results

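The clustered histone genes are the replication-dependent histone genes that lie side by side in the Hist1, Hist2, Hist3 and Hist4 clusters. Their members were taken as every non-control probe whose gene name begins with Hist and a cluster number from 1 to 4 followed by h, which gave 57 of 39429 probes, for 49 of the 30214 gene names on the arrays. Of these genes 42 had 1 probe, 6 had 2 probes and 1 had 3 probes. The Hist1 cluster on chromosome 13 held 41 of the probes, Hist2 on chromosome 3 held 11, Hist3 on chromosome 11 held 3 and Hist4 on chromosome 6 held 2. By protein class there were 6 probes for the linker histone H1, 16 for H2A, 13 for H2B, 8 for H3 and 14 for H4. The Hist1 probes spanned 2.21 Mb, from 21814057 to 24026527 in the mm9 build named in the files, leaving out Hist1h2al and Hist1h2ag, whose listed positions do not place a single probe there.

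The RNA came from C2C12, an established line of mouse myoblasts that join into multinucleate myotubes when growth factors are withdrawn, and the series describes the cultures as myotubes. Cells were kept for 72 h with vehicle, with 1 nM or with 10 nM calcitriol, the active vitamin D hormone and ligand of the vitamin D receptor, with 3 biological replicates per group and 1 single-colour array per replicate. The groups share the cell line and carry no transgene or deletion that the labels name. The sources used here do not give how far the cultures had differentiated when calcitriol was added. In such bulk RNA, fewer cells of a type and less RNA per cell cannot be told apart.

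Histones are the proteins around which DNA is wound. Core histones H2A, H2B, H3 and H4 form the nucleosome, and H1 binds the linker DNA between nucleosomes. Most mRNAs of the clustered genes are made during S phase, when DNA is copied, and end in a conserved stem-loop bound by the stem-loop binding protein in place of a poly(A) tail. Some clustered genes also give polyadenylated transcripts in cells that have left the cell cycle. Skeletal muscle is a classic case of a tissue whose cells leave the cycle for good as they differentiate.

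Signals are given as log2 of the processed signal minus the 75th percentile of the same array, so that 0 is the level of the probe at that percentile. A probe was tested if every array of some group (3 of 3) marked it as well above background, and 53 of the 57 probes and 46 of the 49 genes met this. The probes left out were those of Hist1h1d, Hist2h2ab and Hist3h2ba and the later of 2 Hist4h4 probes. Of the tested probes, 44 met the limit in each of the 3 groups, 5 (Hist1h2ae, Hist1h2bq, Hist1h3a, Hist1h3g and Hist3h2bb-ps) in vehicle alone, and 4 with calcitriol but not in vehicle. Calls are those of limma at a Benjamini-Hochberg adjusted p under 0.05, fitted over all 28339 probes that passed the same filter. Probe sequences are close to each other in these families, so a probe may also have measured RNA of other members.

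Stem-loop sequences and near-identical probes are shown first because several results turn on where in a transcript a probe lies. The histone stem-loop consensus, searched on the probe strand, was found in 7 of 39429 probes (0.0178%), and 6 of those 7 were clustered histone probes. In the stretches shown here, read from the probe sequences in the files, capitals mark the stem-loop and lower case the bases on either side.
Hist1h3a, chr13:23853756-23853815, minus strand: aaccaaaGGCTCTTTTCAGAGCCaca
Hist1h3g, chr13:23627719-23627778, plus strand: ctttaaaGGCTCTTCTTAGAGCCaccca
Hist1h3i, chr13:21874784-21874843, minus strand: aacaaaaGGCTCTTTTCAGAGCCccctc
Hist1h4m, chr13:21903960-21904019, plus strand: aactaaaGGCCCTTTTCAGGGCCatccaa
Hist2h2bb, chr3:96074056-96074115, plus strand: cccaaaaGGCTCTTTTCAGAGCCacttta
Hist2h2aa2, chr3:96043669-96043728, minus strand: taaaaaGGCTCTTTTCAGAGCCacccact
Among 1596 pairs of member probes, 4 probes of different genes matched at least 1 other at 90% or more of their bases. They are the H2A probes shown in full here, whose capitals mark the 5 bases at which each differs from the Hist1h2af probe.
Hist1h2af, chr13:23626113-23626172, plus strand: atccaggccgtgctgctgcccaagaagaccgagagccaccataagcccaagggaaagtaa
Hist1h2ak, chr13:21845304-21845363, minus strand: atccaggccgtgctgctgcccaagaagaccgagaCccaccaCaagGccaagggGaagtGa
Hist1h2an, chr13:21878695-21878754, minus strand: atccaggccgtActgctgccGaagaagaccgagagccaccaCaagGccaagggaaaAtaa
Hist2h2aa2, chr3:96043781-96043840, minus strand: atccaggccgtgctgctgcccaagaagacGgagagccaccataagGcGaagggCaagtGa

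Vehicle replicate 3 was unlike the other 8 arrays. It had 6124 spots marked as non-uniform, 5 member probes had no value on it, and its median lay at -2.14 against -3.88 to -3.50 on the others. Slide 1 held vehicle replicates 1 and 2 and replicate 1 of each dose. Slide 2 held vehicle replicate 3, 1 nM replicates 2 and 3 and 10 nM replicate 2. A comparison within slide 1 thus rests on 1 array per dose, and within slide 2 on vehicle replicate 3 alone. Across tested probes, pairs of arrays of a group correlated at 0.9667 to 0.9943 in vehicle, at 0.9938 to 0.9971 with 1 nM and at 0.9914 to 0.9936 with 10 nM. All 8 skeletal muscle markers, among them Acta1, Ckm, Myog and Myod1, passed the filter on the arrays. At 1 nM 4 of them were higher than in vehicle and 0 lower, and at 10 nM 5 were higher and 1, Myog, was lower (log2 -0.43, adjusted p = 0.00325, limma). Over all tested probes, 11% were higher and 11.3% lower at 1 nM, and 14.7% and 14.4% at 10 nM. The log2 of the summed signal of these markers ran from 8.05 to 8.22 in vehicle, from 8.38 to 8.46 at 1 nM and from 8.47 to 8.50 at 10 nM.

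Most clustered histone probes were lower after calcitriol. At 1 nM, 28 of the 53 tested probes were lower than in vehicle, 3 were higher and 22 were not called, where 11.3% of all tested probes were called lower and 11% higher. The median log2 change of the members was -0.99, beside -0.09 over all tested probes. At 10 nM, 31 were lower, 3 were higher and 19 were not called, where 14.4% of all tested probes were called lower and 14.7% higher, and the medians were -0.90 for the members and -0.11 over all tested probes. The probes called lower belonged to 25 genes at 1 nM and 28 genes at 10 nM. Both comparisons use the same vehicle arrays. Of the 44 probes well above background in each group, 25 were lower and 3 higher at 1 nM, and 27 were lower and 3 higher at 10 nM.

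Without vehicle replicate 3 the counts were 28 lower and 3 higher at 1 nM and 30 lower and 2 higher at 10 nM, and the member medians were -0.67 and -0.82 beside -0.01 and -0.03 over all probes. Scaling each array to its median in place of its 75th percentile moved the median of all tested probes to 0.38 at 1 nM and 0.40 at 10 nM, and left 14 members lower and 2 higher at 1 nM and 16 lower and 2 higher at 10 nM. Of all 28339 tested probes, that scaling called 723 lower and 1184 higher at 1 nM, and 1059 lower and 2161 higher at 10 nM. Relative to all probes the members' median was then -0.88 at 1 nM and -0.77 at 10 nM, beside -0.90 and -0.79 under the 75th percentile. With normexp background correction (offset 50) in place of the processed signal, still scaled to the 75th percentile, these differences were -0.57 and -0.51. With that background correction and quantile normalization they were -0.34 and -0.32. Every result given here as quantile normalization also carries that background correction.

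**Figure D1:**
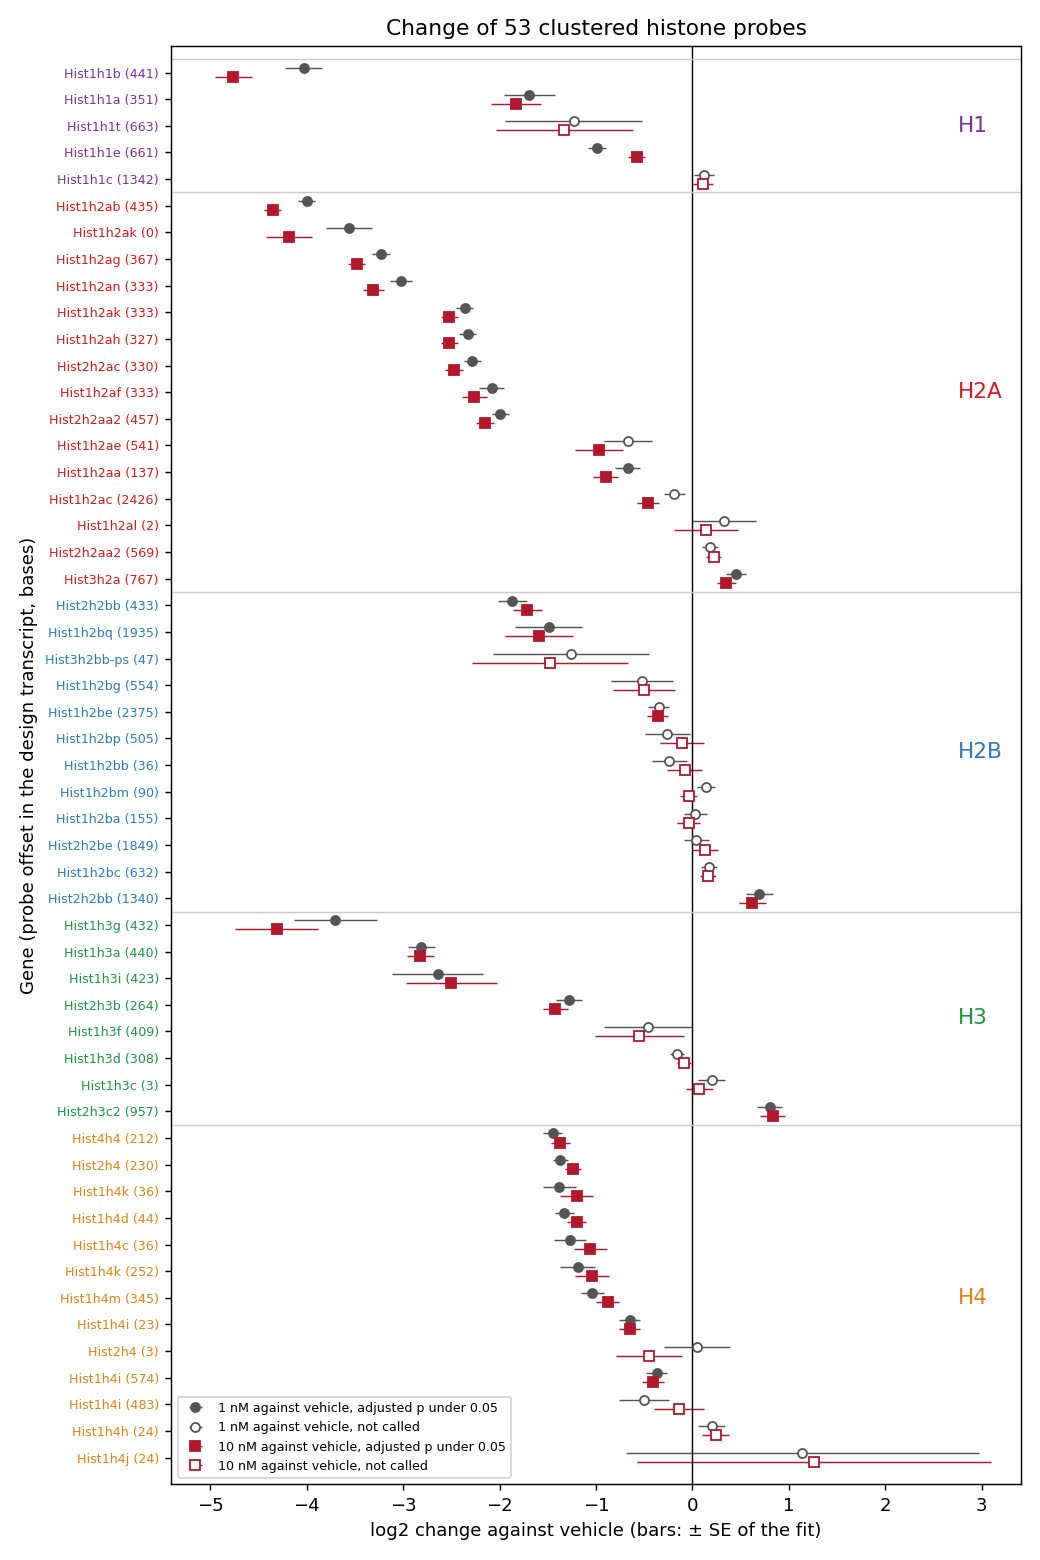
Log2 change of each of the 53 tested clustered histone probes at 1 nM (grey circles) and 10 nM (red squares) against vehicle, grouped by protein class, with bars for the SE of the fit and filled symbols for an adjusted p under 0.05. Most H2A, H1, H3 and H4 probes lie left of 0, down to -4.76 for Hist1h1b, and most H2B probes lie near 0.

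The linker histone genes were unlike each other. Of 5 tested H1 probes, 3 fell and 0 rose at each dose. Hist1h1b, now named H1f5, stood at 2.15, 2.03 and 1.89 on the vehicle arrays, at -2.18, -2.24 and -1.60 at 1 nM and at -2.78, -2.50 and -2.94 at 10 nM. The groups did not overlap, and all treated arrays lay far below the vehicle arrays. Hist1h1b was 16.3-fold lower at 1 nM (log2 -4.03, SE 0.19, adjusted p = 5.67e-06 by limma) and 27.2-fold lower at 10 nM (log2 -4.76, SE 0.19, adjusted p = 1.58e-06 by limma). Hist1h1e, now H1f4, stood at 2.41, 2.16 and 2.31 in vehicle, at 1.22, 1.32 and 1.35 at 1 nM and at 1.69, 1.84 and 1.61 at 10 nM. Its 1 nM arrays were the lowest, and the 10 nM arrays lay between the other groups without overlap. The changes were -0.99 at 1 nM (adjusted p = 0.000221) and -0.58 at 10 nM (adjusted p = 0.00267, limma), but scaled to array medians both calls were lost, with changes of -0.50 (adjusted p = 0.319) and -0.05 (adjusted p = 0.913), and within slide 1 the 10 nM call was lost. Hist1h1a, now H1f1, fell by 1.69 and by 1.83 on the log2 scale at 1 nM and 10 nM, and the 1 nM call was lost when arrays were scaled to their medians (adjusted p = 0.0509, limma).

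Hist1h1c, now H1f2, did not pass the test at either dose. It stood at 2.92, 2.83 and 2.72 in vehicle, at 2.99, 2.80 and 3.05 at 1 nM and at 2.87, 3.05 and 2.88 at 10 nM, and the groups overlapped. The 95% interval of its log2 change ran from -0.11 to 0.35 at 1 nM and from -0.12 to 0.34 at 10 nM. Hist1h1t, now H1f6, known as a testis linker histone, had changes of -1.23 and -1.33 that were not called. Its vehicle arrays read -2.29, -2.65 and 0.23, and without vehicle replicate 3 the changes were -0.33 at 1 nM and -0.43 at 10 nM.

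H2A had the lowest median change of the 5 classes. Of 15 tested H2A probes, 10 were lower and 1 higher at 1 nM, with a median change of -2.08, and 12 were lower and 1 higher at 10 nM, with a median of -2.26. Hist1h2ab, now H2ac4, stood at 4.0, 3.83 and 3.90 on the vehicle arrays, at -0.08, -0.08 and -0.11 at 1 nM and at -0.46, -0.29 and -0.57 at 10 nM. The dose groups lay below vehicle with no overlap, and the 10 nM arrays below the 1 nM arrays. Its RNA was 16-fold lower at 1 nM (log2 -4.0, SE 0.09, adjusted p = 2.59e-07, limma) and 20.4-fold lower at 10 nM (log2 -4.35, SE 0.09, adjusted p = 7.95e-08, limma).

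Hist1h2ag stood at 6.35, 6.34 and 6.58 in vehicle, at 3.12, 3.22 and 3.24 at 1 nM and at 2.94, 3.04 and 2.87 at 10 nM. Hist1h2an stood at 6.09, 6.04 and 6.19 in vehicle, at 2.90, 3.21 and 3.16 at 1 nM and at 2.74, 2.95 and 2.70 at 10 nM. For both genes every treated array lay below every vehicle array. Hist1h2ag was 9.39-fold lower at 1 nM and 11.1-fold lower at 10 nM, and Hist1h2an was 8.10-fold and 9.92-fold lower, with adjusted p from 1.92e-07 to 1.35e-06 (limma). Hist1h2ah stood at 6.53, 6.59 and 6.75 in vehicle, at 4.18, 4.36 and 4.33 at 1 nM and at 4.06, 4.17 and 4.08 at 10 nM, and Hist1h2af at 6.31, 5.97 and 6.48, at 4.07, 4.23 and 4.23 and at 3.95, 4.10 and 3.92. Hist1h2ah was 5.04-fold lower at 1 nM and 5.73-fold lower at 10 nM, and Hist1h2af 4.22-fold and 4.80-fold lower. The probes of Hist1h2af, Hist1h2an, Hist1h2ak and Hist2h2aa2 are the near-identical set printed above, and RNA of each may have bound to the others.

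Hist1h2ak had 2 probes. The probe at offset 333 of the design transcript, in bases, stood at 6.32, 6.30 and 6.52 in vehicle, at 3.92, 4.05 and 4.07 at 1 nM and at 3.81, 3.95 and 3.83 at 10 nM. The probe at offset 0 stood at 2.73, 2.94 and 2.85 in vehicle, at -0.83, -0.71 and -0.63 at 1 nM and at -1.97, -0.96 and -1.11 at 10 nM. Both fell without overlap, by 2.36 and by 3.56 on the log2 scale at 1 nM and by 2.52 and by 4.18 at 10 nM.

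Hist1h2aa, now H2ac1 and known as a testis H2A, fell by 0.67 and by 0.90 on the log2 scale at 1 nM and 10 nM (adjusted p = 0.00835 and 0.00141, limma), but both calls were lost when arrays were scaled to their medians, and its 1 nM change was 0.03 with quantile normalization. Hist1h2ac and Hist1h2ae were called lower at 10 nM, with changes of -0.46 and -0.97, but with quantile normalization these were 0.29 and 0.07. At 1 nM neither was called. Hist1h2ae passed the filter through vehicle alone, which favours a lower call. Hist1h2al was not called, at 0.33 and 0.14.

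**Figure D2:**
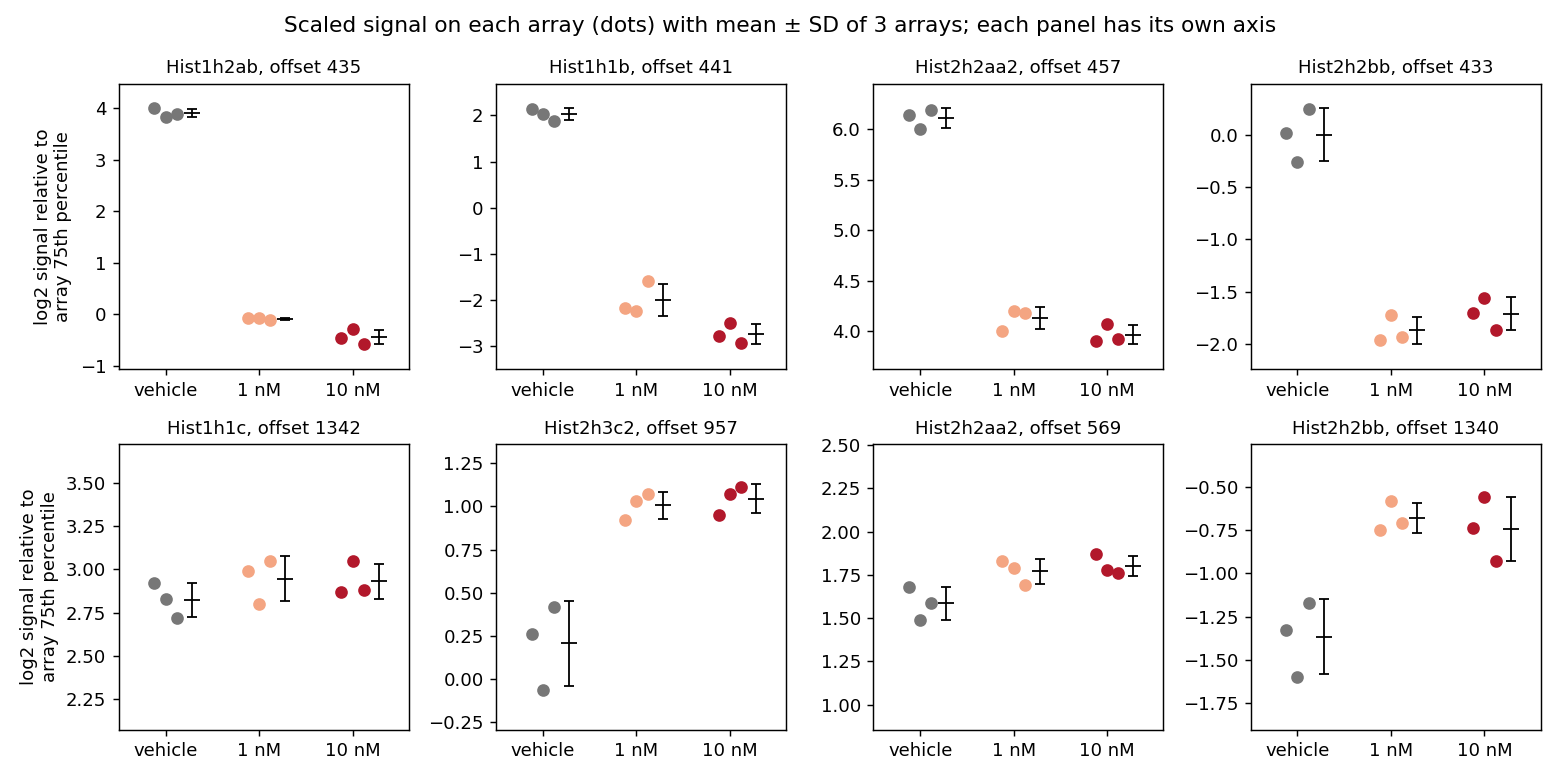
Scaled log2 signal of 8 clustered histone probes on each of the 9 arrays, in the order vehicle, 1 nM and 10 nM, with the mean and SD of 3 arrays beside the dots and a separate axis for each panel. The top row holds probes that fell, such as Hist1h2ab with vehicle arrays from 3.83 to 4.0 and treated arrays below 0, and the bottom row holds probes that were not called (Hist1h1c and the Hist2h2aa2 probe at offset 569) or that rose (Hist2h3c2 and the Hist2h2bb probe at offset 1340).

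Most H2B probes were not called at either dose. Of 12 tested, 2 were lower and 1 higher at 1 nM, 3 lower and 1 higher at 10 nM, and the medians of -0.25 and -0.10 were 0.06 and 0.12 when arrays were scaled to their medians. Hist1h2bc, now H2bc4, stood at 4.16, 4.08 and 3.97 in vehicle, at 4.20, 4.26 and 4.24 at 1 nM and at 4.11, 4.34 and 4.25 at 10 nM. Its 1 nM arrays lay just above the vehicle arrays and its 10 nM arrays overlapped them, and neither change was called, with 95% intervals of the log2 change from -0.03 to 0.36 at both doses. Hist1h2bm and Hist1h2ba, the testis H2B, were also not called, with log2 changes between -0.04 and 0.14. Hist1h2bq fell by 1.49 at 1 nM and by 1.59 at 10 nM on the log2 scale (adjusted p = 0.0195 and 0.0112, limma). Hist1h2bq passed the filter through vehicle alone, which favours a lower call. Its 1 nM call was lost without vehicle replicate 1 (adjusted p = 0.0569), 1 nM replicate 2 (0.0599) or 1 nM replicate 3 (0.0712). With quantile normalization its changes were -0.23 and -0.21 and neither was called, and its 10 nM call was also lost with slide as a block. Hist1h2be was called lower at 10 nM, with a change of -0.36 (adjusted p = 0.0376, limma), which was 0.07 with quantile normalization and 0.17 when arrays were scaled to their medians.

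H3 genes ranged from strong decreases to 1 increase. Of 8 tested H3 probes, 4 were lower and 1 higher at each dose, with medians of -0.87 at 1 nM and -0.98 at 10 nM. Among the lower probes, Hist1h3a and Hist1h3g passed the filter through vehicle alone, which favours a lower call. Hist1h3a stood at -4.59, -4.58 and -4.34 in vehicle, at -7.36, -7.04 and -7.53 at 1 nM and at -7.43, -7.34 and -7.19 at 10 nM. It was well above background on all vehicle arrays and on 0 of 3 arrays at each dose. Each treated array was therefore taken at its lowest signal well above background or at the probe's own signal, whichever is higher. So taken, Hist1h3a was 4.94-fold lower at 1 nM and 4.79-fold lower at 10 nM, which is not a strict lower bound. The limma calls, made without that limit (adjusted p = 7.61e-06 at 1 nM and 4.82e-06 at 10 nM), were lost with quantile normalization.

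Hist1h3g stood at -2.74, -2.88 and -2.56 in vehicle, at -6.51, -6.49 and -6.27 at 1 nM and at -6.79, -6.19 and -8.11 at 10 nM, where 1 of 3 arrays at each dose was well above background. With each array taken at no less than its lowest signal well above background, its mean lay 3.70 below vehicle at 1 nM and 3.71 below at 10 nM on the log2 scale. At 1 nM every signal lay above that limit, so the limit changed nothing there, and neither value is a strict lower bound. Under the alternatives its changes were as small as -1.64 at 1 nM and -1.70 at 10 nM. Hist1h3i stood at -2.91, -3.00 and -1.17 in vehicle, at -5.08, -4.89 and -5.04 at 1 nM and at -4.83, -4.49 and -5.25 at 10 nM. Both fell without overlap, and the Hist1h3i changes of -2.64 and -2.50 were -2.05 and -1.90 without vehicle replicate 3.

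Hist1h3d, now H3c4, did not pass the test. It stood at 3.92, 4.09 and 3.96 in vehicle, at 3.75, 3.87 and 3.86 at 1 nM and at 3.91, 3.92 and 3.88 at 10 nM. Its log2 changes were -0.16 (95% interval -0.33 to 0.00) at 1 nM and -0.09 (95% interval -0.25 to 0.08) at 10 nM. Hist1h3c, at 0.20 and 0.07, and Hist1h3f, at -0.46 and -0.55, were not called.

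Most H4 probes were called lower at both doses under the 75th percentile scaling. Of 13 tested H4 probes, 9 were lower and 0 higher at each dose, with medians of -1.04 and -0.88. When arrays were scaled to their medians, 0 of those 9 calls were left at either dose, and 8 of 9 were left at each dose when that scaling was used without vehicle replicate 3. The Hist2h4 probe at offset 230 stood at 4.65, 4.43 and 4.45 in vehicle, at 3.15, 3.19 and 3.08 at 1 nM and at 3.25, 3.28 and 3.28 at 10 nM. It was lower on every treated array than on any vehicle array, 2.59-fold at 1 nM (log2 -1.37, SE 0.08, adjusted p = 1.40e-05, limma) and 2.36-fold at 10 nM (log2 -1.24, SE 0.08, adjusted p = 1.49e-05, limma). Scaled to array medians its adjusted p was 0.151 and 0.167. Hist1h4d fell by 1.33 and by 1.20 on the log2 scale, the Hist1h4k probe at offset 36 by 1.38 and by 1.20, and Hist1h4c by 1.27 and by 1.06.

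Hist4h4, the lone H4 gene of the Hist4 cluster, stood at 1.65, 1.48 and 1.45 in vehicle, at 0.20, 0.03 and 0.00 at 1 nM and at 0.30, 0.05 and 0.13 at 10 nM, by its probe at offset 212. It fell by 1.45 and by 1.37 on the log2 scale with no overlap (adjusted p = 3.69e-05 and 3.39e-05, limma), and scaled to array medians its adjusted p was 0.117 and 0.118. The other Hist2h4 probe, at offset 3, was dim. It stood at -5.45 and -5.53 on the 2 vehicle arrays with a value, at -5.58, -5.14 and -5.61 at 1 nM and at -5.35, -5.92 and -6.55 at 10 nM, and was not called.

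Hist1h4j depended on 1 array. Its vehicle arrays read -0.27, -8.09 and -0.95, beside -1.69, -2.03 and -2.19 at 1 nM and -1.65, -1.99 and -1.89 at 10 nM. With all arrays its changes were 1.14 and 1.26 and were not called. Without vehicle replicate 2 they were -1.35 (adjusted p = 0.0094) and -1.23 (adjusted p = 0.0107, limma). Among the 3 Hist1h4i probes, the one at offset 23 fell by 0.65 at both doses (a call lost under 6 of 25 alternatives at each dose, with changes as small as -0.16 at 1 nM and -0.13 at 10 nM), the one at offset 483 was not called, and the one at offset 574 fell by 0.37 and by 0.41 on the log2 scale. The call at offset 574 was lost when any of several arrays was left out, for instance without vehicle replicate 2 (adjusted p = 0.111 at 1 nM and 0.071 at 10 nM).

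Hist2 genes on chromosome 3 fell and rose within a short stretch. Of 10 tested Hist2 probes, 5 were lower and 2 higher at each dose. Hist2h2ac stood at 6.34, 6.27 and 6.45 in vehicle, at 3.91, 4.16 and 4.14 at 1 nM and at 3.85, 3.97 and 3.84 at 10 nM. It was lower on every treated array, 4.87-fold at 1 nM and 5.53-fold at 10 nM (adjusted p = 2.65e-06 and 1.20e-06, limma). Hist2h3b stood at -0.24, -0.17 and -0.14 in vehicle, at -1.61, -1.22 and -1.56 at 1 nM and at -1.67, -1.76 and -1.39 at 10 nM, and fell by 1.28 and by 1.42 on the log2 scale. Both calls were lost when arrays were scaled to their medians (adjusted p = 0.19 and 0.104, limma), and kept under that scaling without vehicle replicate 3. Hist2h2be, at -4.32, -4.23 and -3.88 in vehicle, -4.03, -4.14 and -4.14 at 1 nM and -3.86, -4.01 and -4.18 at 10 nM, overlapped between groups and was not called.

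Hist2h3c2, an H3 gene by its name, measured at offset 957 by a probe not matched to a current symbol, was among the 3 probes that rose. It stood at 0.26, -0.06 and 0.42 in vehicle, at 0.92, 1.03 and 1.07 at 1 nM and at 0.95, 1.07 and 1.11 at 10 nM, with no overlap. The rise was 1.74-fold for 1 nM (log2 0.80 with an SE of 0.13, limma adjusted p = 0.00312) and 1.78-fold for 10 nM (log2 0.83 with an SE of 0.13, limma adjusted p = 0.00186). Within slide 1, with 1 array per dose, the changes were 0.82 at 1 nM and 0.84 at 10 nM.

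Hist3h2a, an H2A gene of the Hist3 cluster on chromosome 11 measured at offset 767, was also higher. It stood at 0.37, 0.44 and 0.14 in vehicle, at 0.68, 0.84 and 0.79 at 1 nM and at 0.57, 0.71 and 0.71 at 10 nM, and every treated array lay above every vehicle array. The rise was 1.37-fold at 1 nM and 1.27-fold at 10 nM (adjusted p = 0.014 and 0.0321, limma), and its call was lost under 8 of 26 alternatives at 1 nM and 16 of 26 at 10 nM, among them without 1 nM replicate 2 (adjusted p = 0.0614 at 1 nM) and without vehicle replicate 3 (adjusted p = 0.0534 at 10 nM). The other tested Hist3 probe, Hist3h2bb-ps, a pseudogene by its name, stood at -5.64, -5.93 and -2.76 in vehicle, at -5.66, -6.16 and -6.29 at 1 nM and at -5.65, -6.11 and -7.01 at 10 nM. It was not called, and without vehicle replicate 3 its changes were -0.25 and -0.47.

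Probes of the same Hist2 gene name did not change alike. The 2 probes named Hist2h2bb were annotated to different transcripts, so their offsets are not positions in 1 transcript. The probe at offset 433, matched to the current symbol H2bc18, ends 6 bases past the stem-loop shown above. The second probe, not matched to a current symbol, starts 8698 bases further along chromosome 3. The probe at offset 433 stood at 0.02, -0.26 and 0.24 in vehicle, at -1.96, -1.72 and -1.93 at 1 nM and at -1.70, -1.56 and -1.87 at 10 nM. The distant probe, at offset 1340, stood at -1.33, -1.60 and -1.17 in vehicle, at -0.75, -0.58 and -0.71 at 1 nM and at -0.74, -0.56 and -0.93 at 10 nM. Treated arrays were lower than vehicle at the first probe and higher at the second, with no overlap at either. The changes were -1.87 and -1.71 at offset 433 (adjusted p = 7.80e-05 and 8.52e-05) and 0.69 and 0.62 at offset 1340 (adjusted p = 0.00959 and 0.0116, limma). Within slide 1, with 1 array per dose, the rise at offset 1340 was 0.72 at 1 nM and 0.73 at 10 nM. The distant probe holds a canonical polyadenylation signal, in capitals in this stretch from chr3:96082754-96082813, plus strand, whose letters AATAAA or ATTAAA stand in 5 member probes (8.77%) and in 16.7% of all probes.
Hist2h2bb, offset 1340: gttgtcagtttgAATAAAgacagagaaact

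Hist2h2aa2, now H2ac19, was measured by probes whose starts lie 112 bases apart. At offset 457 it stood at 6.14, 6.0 and 6.19 in vehicle, at 4.0, 4.20 and 4.18 at 1 nM and at 3.90, 4.07 and 3.92 at 10 nM. At offset 569 it stood at 1.68, 1.49 and 1.59 in vehicle, at 1.83, 1.79 and 1.69 at 1 nM and at 1.87, 1.78 and 1.76 at 10 nM. Treated arrays were clearly lower than vehicle at offset 457, while at offset 569 they lay slightly above every vehicle array. The changes were -1.99 and -2.15 at offset 457 (adjusted p = 4.55e-06 and 1.99e-06) and 0.18 and 0.22 at offset 569 (adjusted p = 0.14 and 0.072, limma), where they were not called. The stem-loop in the probe at offset 569 is followed by 38 further bases, so most of that probe lies past the stem-loop. In the other 5 probes with a stem-loop 3 to 6 bases follow it, and all 5 were called lower at both doses. Over all tested probes, 11.3% were called lower at 1 nM and 14.4% at 10 nM. Hist1h3a and Hist1h3g passed the filter through vehicle alone, which favours a lower call, so they do not bear on the position of the stem-loop. Hist1h4m lost its calls when arrays were scaled to their medians, and with quantile normalization its changes were -0.10 and 0. Hist1h3a lost its calls with quantile normalization, where its changes were -0.64 and -0.61.

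The difference between probes of the same gene name was tested with limma over 7849 pairs of probes, a test chosen after the values were seen. Of all pairs it called 2.28% for 1 nM, 4.31% for 10 nM and 0.0127% for 10 nM against 1 nM. The later minus the earlier change of Hist2h2bb was 2.56 at 1 nM (SE 0.08, adjusted p = 8.53e-06) and 2.34 at 10 nM (SE 0.08, adjusted p = 5.77e-06). For Hist2h2aa2 it was 2.17 (SE 0.12, adjusted p = 0.000106) and 2.37 (SE 0.12, adjusted p = 5.10e-05). For Hist1h2ak it was 1.20 (SE 0.23, adjusted p = 0.039) and 1.67 (SE 0.23, adjusted p = 0.00692), with both probes lower. Pairs of Hist1h4i, Hist1h4k and Hist2h4 were not called.

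Core histone probes were also sorted by their offset in the design transcript, with limits set after the values were seen and therefore without a test. Of 22 probes at offsets from 100 to under 500, 18 were lower and 0 higher at each dose, with a median change of -1.93 at both. Of 13 probes at offsets of 500 or more, 2 were lower and 3 higher at 1 nM, with a median of -0.19, and 5 lower and 3 higher at 10 nM, with a median of -0.11. Of 13 probes at offsets under 100, 5 were lower and 0 higher at each dose. These counts include probes that passed the filter through vehicle alone, which favours a lower call. They were Hist1h3a and Hist1h3g at 100 to under 500, Hist1h2ae and Hist1h2bq at 500 or more, and Hist3h2bb-ps, not called, under 100. H2B probes made up most of those at 500 or more, while H2A was the largest class at 100 to under 500. These counts therefore do not separate offset from class. The 3 probes that rose lay at offsets 767, 957 and 1340. The labelling kit named in the labels is of a kind primed on poly(A) tails, and the share of each probe's signal that came from polyadenylated transcripts was not tested.

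**Figure D3:**
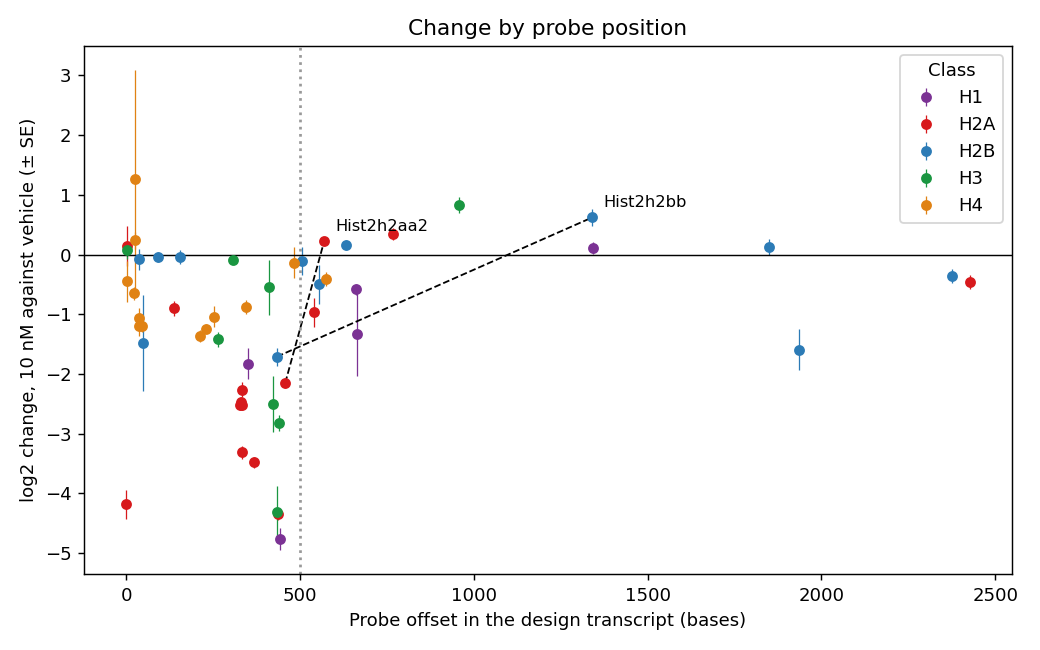
Log2 change at 10 nM against vehicle for the 53 tested clustered histone probes, plotted against the probe's offset in its design transcript in bases, coloured by class, with bars for the SE and dashed lines joining the probes of Hist2h2bb and of Hist2h2aa2. The core histone probes at offsets from 100 to under 500 have a median of -1.93, while those at 500 or more have a median of -0.11 and include the 3 that rose.

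No clustered histone probe was called between the doses by limma. Between 10 nM and 1 nM, limma called 0 of the 53 probes lower and 0 higher, where 1.92% of all tested probes were called lower and 1.42% higher. At an unadjusted p under 0.05 there were 6 lower and 1 higher, and the median change was -0.07, beside -0.01 over all probes. The smallest adjusted p was 0.0683, for Hist1h1e, which was higher at 10 nM than at 1 nM by 0.41 (95% interval 0.19 to 0.63). The difference of 10 nM minus 1 nM was -0.74 for Hist1h1b (95% interval -1.18 to -0.29, adjusted p = 0.111, limma) and -0.35 for Hist1h2ab (95% interval -0.55 to -0.14). Other ways of estimating the spread, such as array weights, called Hist1h1e, Hist1h1b or Hist1h2ab between the doses. For Hist1h4j the interval was wide, from -4.15 to 4.40.

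Promoters of the members were read from RefSeq for GRCm38.p6, from 250 bases before to 50 after the start of each gene, and 42 promoters of 41 of the 49 genes were matched. CCAAT, on either strand, stood in 36 of them (85.7%) and in 37.4% of all 32851 promoters. TATAAA stood in 25 (59.5%) and in 13.6% of all, and the octamer ATTTGCAT in 13 (31%) and in 1.74% of all. The octamer, known from H2B promoters as a site for Oct1, was found in 6 of 10 H2B and 7 of 13 H2A promoters and in 0 of the H1, H3 and H4 promoters. CCAAT was found in 2 of 8 H4 promoters and in every matched promoter of the other classes. The promoters of Hist1h2ab (chr13:23750838-23751137, plus strand) and Hist1h1b (chr13:21780576-21780875, minus strand) are printed because these genes fell most in their classes, with the 3 motifs, on either strand, in capitals. A match is a stretch of letters and not a measured site.
Hist1h2ab: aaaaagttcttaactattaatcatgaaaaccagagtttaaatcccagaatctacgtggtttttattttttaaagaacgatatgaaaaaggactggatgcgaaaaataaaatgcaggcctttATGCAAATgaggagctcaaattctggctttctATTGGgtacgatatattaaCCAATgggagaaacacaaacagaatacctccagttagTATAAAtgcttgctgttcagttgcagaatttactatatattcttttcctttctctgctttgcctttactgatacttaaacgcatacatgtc
Hist1h1b: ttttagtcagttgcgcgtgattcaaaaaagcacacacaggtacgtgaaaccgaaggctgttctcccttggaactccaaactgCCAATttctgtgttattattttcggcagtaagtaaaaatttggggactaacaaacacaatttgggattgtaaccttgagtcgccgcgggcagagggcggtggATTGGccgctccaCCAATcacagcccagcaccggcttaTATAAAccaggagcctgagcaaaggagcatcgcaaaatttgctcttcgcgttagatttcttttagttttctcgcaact

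Genes that share S phase or histone handling with the clustered genes were counted from 4 lists. For each list, the shares over all tested probes were 11.3% lower and 11% higher at 1 nM, and 14.4% and 14.7% at 10 nM. Of 28 tested S phase genes, 25 were lower and 0 higher at 1 nM and 25 lower and 1 higher at 10 nM, with medians of -1.31 and -1.46. Tk1, the thymidine kinase of dividing cells, was 21.7-fold lower at 1 nM and 34.9-fold lower at 10 nM, and Mki67, the proliferation marker Ki-67, 22.3-fold and 44.4-fold lower. Ccna2, the S phase cyclin, was 16.7-fold and 26.1-fold lower, and Uhrf1, which carries DNA methylation through replication, 11.9-fold and 20.5-fold lower. These S phase genes and the clustered histones were lower in the same treated arrays, and the part of one in the other was not tested.

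Of 21 tested histone chaperone and assembly genes, 8 were lower and 2 higher at 1 nM and 7 lower and 2 higher at 10 nM, with medians of -0.05 and -0.01. Those that fell included the replication-coupled factors Asf1b (8.27-fold at 1 nM, 6.24-fold at 10 nM), Chaf1a (3.26-fold, 3.89-fold) and Chaf1b (4.20-fold, 5.03-fold), of which the Chaf1 genes encode subunits of the same assembly complex. Asf1a, the paralog of Asf1b, and Ubn1, a subunit of the HIRA complex that deposits H3.3, were higher by 0.47 and 0.48 on the log2 scale at 1 nM and by 0.50 and 0.54 at 10 nM. Hira itself was not called, with changes of -0.04 at 1 nM and 0.03 at 10 nM. Cabin1 (-0.03 and -0.05), Daxx and Atrx were not called at either dose. Of 12 histone variants listed as replication-independent, 5 were lower and 0 higher at 1 nM and 5 lower and 1 higher at 10 nM. They were Cenpa, the centromeric H3 (17.1-fold and 27.6-fold lower), H2afj, H2afx, H2afz and H1f0, while H3f3b, which encodes the replacement histone H3.3, rose by 0.28 at 10 nM on the log2 scale. The variant probes were not compared in sequence with the member probes, so they may also have measured RNA of members.

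Of 15 tested genes for histone mRNA transcription and 3′ processing, 4 were lower and 1 higher at 1 nM and 4 lower and 2 higher at 10 nM. Those counts stand beside 11.3% lower and 11% higher over all tested probes at 1 nM, and 14.4% and 14.7% at 10 nM. Slbp, the stem-loop binding protein, was 1.5-fold and 1.48-fold lower (adjusted p = 0.0154 and 0.0141, limma), and Lsm11, a subunit of the U7 particle that cuts the transcripts, 1.42-fold and 1.57-fold lower. Zfp473, a zinc finger protein known from human cells to act with that particle, and Eri1, an exonuclease that binds the stem-loop, were also lower. Npat, the coactivator of the clustered genes, did not pass the filter. No list here was tested as a set.

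**Figure D4:**
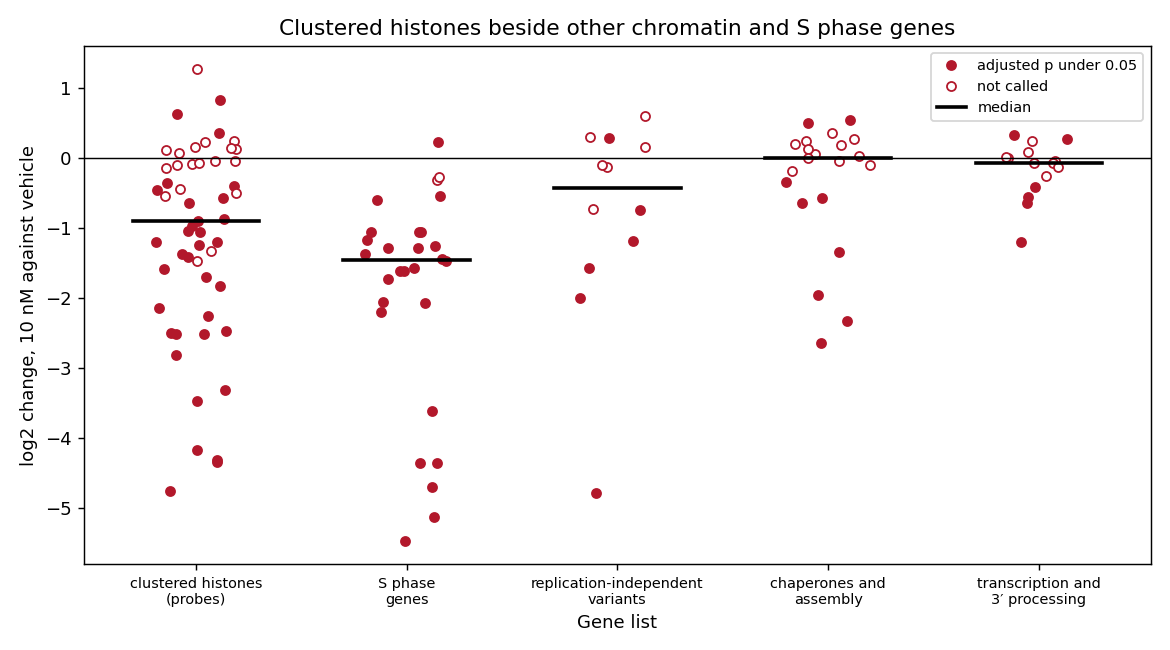
Log2 change at 10 nM against vehicle for the clustered histone probes and for the genes of 4 related lists, with filled symbols for an adjusted p under 0.05 and a bar at the median. The medians are -0.90 for clustered histone probes and -1.46 for S phase genes, while most chaperone and 3′ processing genes lie near 0.

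Markers of other cells also moved between the groups. The log2 of the summed signal of 5 fibroblast and smooth muscle markers ran from 8.32 to 8.35 in vehicle, from 7.48 to 7.59 at 1 nM and from 7.12 to 7.13 at 10 nM. At each dose 4 of the 5 were lower, and Pdgfra, the fibroblast marker, was higher, with log2 changes of 0.47 at 1 nM and 0.49 at 10 nM (limma adjusted p = 0.00427 and 0.00261). For 4 of 5 adipocyte markers it ran from -1.01 to 0.30 in vehicle, from 0.79 to 0.88 at 1 nM and from 2.10 to 2.24 at 10 nM, with Fabp4 and Adipoq called higher at 10 nM and Plin1 and Pparg not called, and Cfd did not pass the filter. For 4 of 5 osteoblast markers it ran from -1.31 to -0.82 in vehicle, from -1.24 to -1.12 at 1 nM and from -1.88 to -1.62 at 10 nM. The satellite cell marker Pax7 was 1.48-fold and 1.88-fold lower, and Myf5 did not pass the filter. The part of these shifts in the change of the clustered histones was not tested.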

How the data were processed

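Total RNA of 9 C2C12 cultures, 3 per group per the labels, was hybridised to 1-colour arrays of 44397 spots. The deposited scanner files hold intensity values on a linear scale, which the submitters' processing notes credit to Agilent Feature Extraction 11.5.1.1, beside 0 or 1 marks for spot quality that fit no other unit, per the file headers. A deposited table of the series has 30094 probes as log2 values, with column medians from 9.65 to 9.72, and served as an alternative. Its columns correlated at 0.99987 to 0.99994 with normexp-corrected, quantile-normalized values made here, so it was not centred by gene.

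Control and non-uniform spots were left out, spots of 1 probe were averaged, and log2 processed signal minus the array's 75th percentile (2825.7 to 3389.3 intensity units, no saturated spot) was fitted per probe with limma 3.58.1 in R 4.3.3 (lmFit, eBayes), all groups in 1 fit without a block. Limma's variance was shared by the groups. The number of arrays limits the precision. The smallest SD of the difference between any pair of arrays was 0.252, so each array counted as 1 sample.

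The members and lists were chosen with earlier results of these data known. Values in every array are given for the 10 called member genes with the smallest p in each direction per dose, the member of each class with the highest mean signal, genes with probes called in opposite directions and every tested Hist2, Hist3 and Hist4 member. Up to 4 called genes were named per other list, and further genes were named after their values were seen. Current symbols came by accession from a RefSeq table of GRCm38.p6, matched for 52 member probes. Deviations from group means of same-numbered 1 nM and 10 nM arrays correlated at 0.464, 0.317 and 0.13 for replicates 1, 2 and 3. The dose arrays of replicates 1 and 2 shared a slide and those of replicate 3 did not. Pairing of cultures and sharing of a slide therefore cannot be told apart. The main fit used no pairing, which entered only as an alternative, and the vehicle numbers were not taken as pairs. Alternatives covered background correction, scaling, filters, the variance model, blocks for replicate number or slide, leaving out arrays singly and stricter thresholds.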

Additional observations from a re-analysis of the deposited data

How the results depend on the processing

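Called members kept their call under every alternative run for 12 of 31 probes at 1 nM and 12 of 34 at 10 nM. Counts are given as lower and higher members. Scaling each array to its median gave 14 lower at 1 nM and 16 lower at 10 nM, where 723 and 1059 of all 28339 probes were lower. Without vehicle replicate 3 as well, that scaling gave 27 and 2 at 1 nM and 26 and 4 at 10 nM. Array weights gave 5 higher at 1 nM. Within slide 1, 0 were higher at either dose, and the same held for a change of at least 2-fold. An adjusted p of 0.01 left 1 higher at 10 nM. The replicate block in the fit of all groups gave 27 and 3 for 1 nM, 29 and 3 for 10 nM, and 0 and 0 for 10 nM against 1 nM. Pairing in a fit of only the 2 groups compared, an alternative chosen after seeing the data, gave 0 higher at either dose and 17 lower at 10 nM, where fewer arrays enter. Leaving out each array in turn gave 26 to 29 lower and 2 to 3 higher at 1 nM, 28 to 31 lower and 2 to 3 higher at 10 nM, and 0 between the doses.

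Between the doses, a variance trend with robust fitting called 2 lower and 1 higher, array weights 1 and 1, quantile normalization 1 higher, and a fit of the 2 dose groups alone 1 higher.

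Some changes turned round. Quantile normalization and the deposited table gave 0.03 and 0.03 for Hist1h2aa at 1 nM, and at 10 nM 0.29 and 0.3 for Hist1h2ac, 0.07 and 0.09 for Hist1h2ae, 0.07 and 0.06 for Hist1h2be, and 0 and 0.01 for Hist1h4m. Array median scaling gave 0.07 for Hist1h2ac and 0.17 for Hist1h2be at 10 nM, and 0.11 and 0.12 for the Hist1h4i probe at offset 574 at 1 nM and 10 nM. Hist1h4j was -1.15 and -1.04 within slide 2, and leaving out each array in turn gave -1.35 to 2.55 at 1 nM and -1.23 to 2.68 at 10 nM, lowest without vehicle replicate 2 and highest without vehicle replicate 1. The cause of these turns was not tested. Slide 3 held 1 array, 10 nM replicate 3, so no comparison could be made within it. Signal over background limits Hist1h3a and Hist1h3g, which 0 and 1 of 3 arrays at each dose marked as well above it.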
